A study of Mus musculus with 48 samples.

Results

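The nuclear-encoded genes of oxidative phosphorylation were followed through the reprogramming of mouse embryonic fibroblasts (MEFs) to induced pluripotent stem cells (iPSCs), with embryonic stem cells (ESCs) as the reference for the pluripotent state. Members were chosen by name and position only: every transcript row outside the mitochondrial chromosome whose symbol was Ndufa, Ndufb, Ndufc, Ndufs or Ndufv with a number, Sdha to Sdhd, or a symbol starting with Uqcr, Cox4 to Cox8, or Atp5. The rule took 83 of the 24264 transcript rows of the count table: 36 of complex I, 4 of complex II, 8 of complex III, 18 of complex IV and 17 of complex V. The series held 48 RNA libraries in 20 conditions with 2 or 3 libraries each, and compared reprogramming by the MKOS and OKMS cassettes, which carry the same factors in a different order.

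Oxidative phosphorylation takes place in the inner mitochondrial membrane. Complex I (NADH dehydrogenase) and complex II (succinate dehydrogenase, also a step of the citrate cycle) pass electrons to ubiquinone, complex III (the cytochrome bc1 complex) passes them to cytochrome c, and complex IV (cytochrome c oxidase) passes them to oxygen, while complex V (ATP synthase) makes ATP from the proton gradient that complexes I, III and IV build. Most subunits are encoded in the nucleus and a small set in mitochondrial DNA, and pluripotent cells are known for relying more on glycolysis than fibroblasts do. Some complex IV subunits exist as isoforms: Cox7a1, Cox6a2 and Cox8b are known from heart and skeletal muscle, Cox7b2, Cox6b2 and Cox8c from testis, and Cox4i2 from lung and from cells short of oxygen. The naming rule has edges. Ndufa4, matched with complex I, is nowadays assigned to complex IV, and Atp5s and Atp5sl, matched with complex V, are not subunits of ATP synthase. Ndufab1 (a complex I subunit) and Cyc1 (the cytochrome c1 of complex III) were not matched and were placed among the other genes of the pathway.

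The MEFs were wild type (WT) or carried a doxycycline-inducible MKOS or OKMS cassette, and the study's methods give a mid-gestation origin and, for the transgenic cells, chimeric embryos. For reprogramming and sorting cultures the transgenic MEFs were diluted in an excess of WT MEFs. Whether the sequenced MEF samples were diluted is not stated. Both cassettes sat with a CAG-driven rtTA transactivator in an intron of Sp3 in TNG ESCs, which carry GFP in the Nanog locus. The MKOS cassette holds a longer form of Klf4 than OKMS. Transgenic cells given doxycycline and vitamin C were sorted by E-CADHERIN (E-CAD), CD44, ICAM1 and Nanog-GFP (NG) into 8 populations with 3 libraries each: 2 stands for CD44 low ICAM1 low and 3 for CD44 low ICAM1 high. For MKOS these were E-CAD+ 2NG-, 3NG- and 3NG+, and for OKMS the same 3 plus E-CAD- 2NG- and 3NG-. The labels give culture for 10 or 15 days and the study's methods sort these populations on day 10, with 20000 to 100000 sorted cells a sample. The other conditions, with 2 libraries each, were MKOS and OKMS iPSCs without doxycycline, the same iPSCs in 2i (inhibitors of MEK and GSK3), D6 iPSCs (1 clone with a single integrated MKOS transposon), and ESCs of the lines E14, TNG, TNG MKOS and TNG OKMS. Nothing in the labels says whether replicates came from separate cultures or animals, so a p-value measured the spread between these libraries only.

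Libraries held between 1429717 and 14174725 reads on transcripts, with a median of 6243255. Levels are given as counts per 1000000 transcript reads of the library (CPM). The libraries record the 5′ end of each transcript, so CPM was not divided by gene length. In the shallowest library, OKMS 3NG+ replicate 2, a count of 3 reads equalled 2.10 CPM, and in the deepest, OKMS E-CAD+ 2NG- replicate 3, 0.212 CPM. The labels were set against 10 fibroblast, 10 pluripotency and 7 epithelial markers. The fibroblast markers summed to between 6164 and 8084 CPM in the 6 MEF libraries, where Nanog had 0 reads, and the pluripotency markers, mostly Dppa5a, to between 11983 and 18908 CPM in the 8 ESC libraries. Cdh1, the gene of E-CAD, was at 152 to 182 CPM in the E-CAD+ 2NG- libraries and at 4.24 to 51.5 CPM in the E-CAD- 2NG- libraries. Some replicates stood apart within their population: pluripotency markers summed to 3383 CPM in replicate 3 of OKMS E-CAD+ 2NG- against 1116 and 890 CPM in replicates 1 and 2, and to 5735 CPM in replicate 3 of OKMS E-CAD+ 3NG- against 2474 and 1710. The replicates of TNG MKOS and TNG OKMS ESCs differed most of all pairs compared, with a chi-square of the counts per degree of freedom of 62.0 and 57.0 against at most 40.5 elsewhere. The members summed to 33444 and 28984 CPM in TNG MKOS replicates 1 and 2, and mitochondrial transcripts to 33287 and 80263 CPM in TNG OKMS replicates 1 and 2. A set of 7 sorted libraries that earlier work on these data had set aside was kept (replicate 3 of the 6 NG- populations and replicate 2 of OKMS 3NG+). Why these libraries were set aside could not be checked. Named calls that were lost without the set are marked.

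Promoters of members that carried the changes described here are shown for reference, since the oxidative phosphorylation genes are known targets of the factors NRF1, GABP and YY1. Each is 300 bases of the RefSeq table for GRCm38.p6, from 250 before to 50 after the annotated start, written 5′ to 3′ on the gene's strand. Capitals mark matches to NRF1 (GCGCATGC), GABP (CCGGAAG), YY1 (AAGATGG), ERR (TCAAGGTCA) or SP1 (GGGCGG), searched on both strands. Cox7b2 (chr5:71548156-71548455, minus strand) held 1 SP1 match and Cox7a1 (chr7:30183921-30184220, plus strand) none. Ndufs6 (chr13:73328433-73328732, minus strand) held 1 YY1 match, Cox7c (chr13:86046746-86047045, minus strand) 1 YY1 match on the reverse strand, and Uqcrc1 (chr9:108936398-108936697, plus strand) 2 overlapping NRF1 matches on opposite strands.
Cox7b2: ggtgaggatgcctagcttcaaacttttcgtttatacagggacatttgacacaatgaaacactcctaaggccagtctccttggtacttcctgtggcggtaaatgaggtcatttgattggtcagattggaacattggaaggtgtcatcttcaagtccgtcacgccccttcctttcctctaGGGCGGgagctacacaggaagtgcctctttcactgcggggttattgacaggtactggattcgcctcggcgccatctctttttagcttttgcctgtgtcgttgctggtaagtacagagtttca
Cox7a1: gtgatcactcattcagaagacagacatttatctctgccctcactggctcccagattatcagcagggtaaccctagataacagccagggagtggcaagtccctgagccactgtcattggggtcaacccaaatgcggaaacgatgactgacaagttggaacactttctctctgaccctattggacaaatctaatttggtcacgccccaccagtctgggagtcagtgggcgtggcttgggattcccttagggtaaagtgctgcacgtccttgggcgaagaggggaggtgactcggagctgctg
Ndufs6: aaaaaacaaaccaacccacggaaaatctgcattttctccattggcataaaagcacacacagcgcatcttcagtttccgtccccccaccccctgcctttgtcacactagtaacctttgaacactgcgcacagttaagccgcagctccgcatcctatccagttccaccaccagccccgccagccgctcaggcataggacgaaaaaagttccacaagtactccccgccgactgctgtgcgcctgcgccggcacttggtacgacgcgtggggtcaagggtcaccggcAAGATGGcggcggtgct
Cox7c: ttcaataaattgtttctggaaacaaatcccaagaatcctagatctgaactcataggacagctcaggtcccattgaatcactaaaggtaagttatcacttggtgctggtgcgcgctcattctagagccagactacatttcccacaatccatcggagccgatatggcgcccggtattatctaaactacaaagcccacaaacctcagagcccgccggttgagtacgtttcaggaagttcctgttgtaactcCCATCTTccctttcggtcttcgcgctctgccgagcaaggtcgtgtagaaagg
Uqcrc1: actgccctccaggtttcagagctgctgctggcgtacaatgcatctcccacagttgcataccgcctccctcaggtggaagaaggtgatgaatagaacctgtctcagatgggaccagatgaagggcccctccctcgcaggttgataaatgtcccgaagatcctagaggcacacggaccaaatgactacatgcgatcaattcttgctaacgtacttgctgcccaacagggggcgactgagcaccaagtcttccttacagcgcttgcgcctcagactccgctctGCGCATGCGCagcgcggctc

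The table held 75 promoters for 69 of the 83 members, among 32851 promoters in all. NRF1 letters stood in 10 of the 75 member promoters (13.3%, against 2.71% of all promoters of this length), GABP letters in 16 (21.3% against 8.86%), YY1 letters in 13 (17.3% against 6.34%), ERR letters in 2 (2.67% against 0.423%) and SP1 letters in 29 (38.7% against 35.7%). Of the 69 members, 33 held at least 1 match to NRF1, GABP, YY1 or ERR. The median GC content was 57.3% in member promoters and 52.7% in all, and matches are descriptions of letters, not of bound sites.

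The members were abundant transcripts. Together they took between 2.84% and 4.56% of the transcript reads of a library, with a median of 3.53%, and 66 of the 83 had a mean above 100 CPM over the 20 conditions. Cox7c, a small complex IV subunit, was highest at 1976 CPM, followed by Ndufa4 at 1413, Cox7b at 1348 and Cox4i1, the broadly expressed form of the largest nuclear-encoded complex IV subunit, at 1295 CPM. In complex II the levels ran from 144 CPM for Sdha, the flavoprotein that oxidises succinate, to 299 CPM for Sdhb, its iron-sulphur partner. In complex III they ran from 55.6 CPM for Uqcrfs1, the Rieske iron-sulphur protein, to 923 CPM for Uqcrh, the hinge protein. In complex V they ran from 14.2 CPM for Atp5s to 1113 CPM for Atp5j, the coupling factor 6 of the stalk. The lowest levels in complex IV were those of tissue-restricted isoforms, with Cox8b at 0.0899 CPM, although Cox6b2 had a mean of 196 CPM. Ndufs5, a complex I subunit, was listed with 0 reads in all 48 libraries, and whether reads of this row could be counted was not tested. Reads were unambiguous for most members, with 3 exceptions under 50% unique reads: Ndufb4 at 4.99%, Atp5g2 at 38.8% and Ndufa7 at 40.1%, so their values may include other copies. The same caution holds in part for Cox5b at 55.0%, Cox7c at 67.4% and Cox7a2l at 71.4%.

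Members differed in how far their levels moved between conditions. Over the 76 members with a mean of at least 20 CPM, the highest condition was a median of 1.91 times the lowest. The ratio passed 2-fold for 34 of them and 3-fold for 8. Ndufa4 and Cox4i1 were among the steadiest abundant members, with ratios of 1.41 and 1.33. Cox7a1, on chromosome 7 at chr7:30184171-30186030, had the widest range of the 5 compared here, at 54.4-fold, against 6.46-fold for Cox6b2, 4.45-fold for Cox5a, 3.42-fold for Atp5d and 2.55-fold for Atp5b. For 26 of the members the highest condition was D6 iPSCs, and for 28 the lowest was one of the MEF conditions (13 OKMS, 10 MKOS and 5 WT). The lowest condition was MKOS iPSCs without doxycycline for 12, TNG MKOS ESCs for 11, TNG OKMS ESCs for 6 and OKMS iPSCs without doxycycline for 5.

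**Figure D1:**
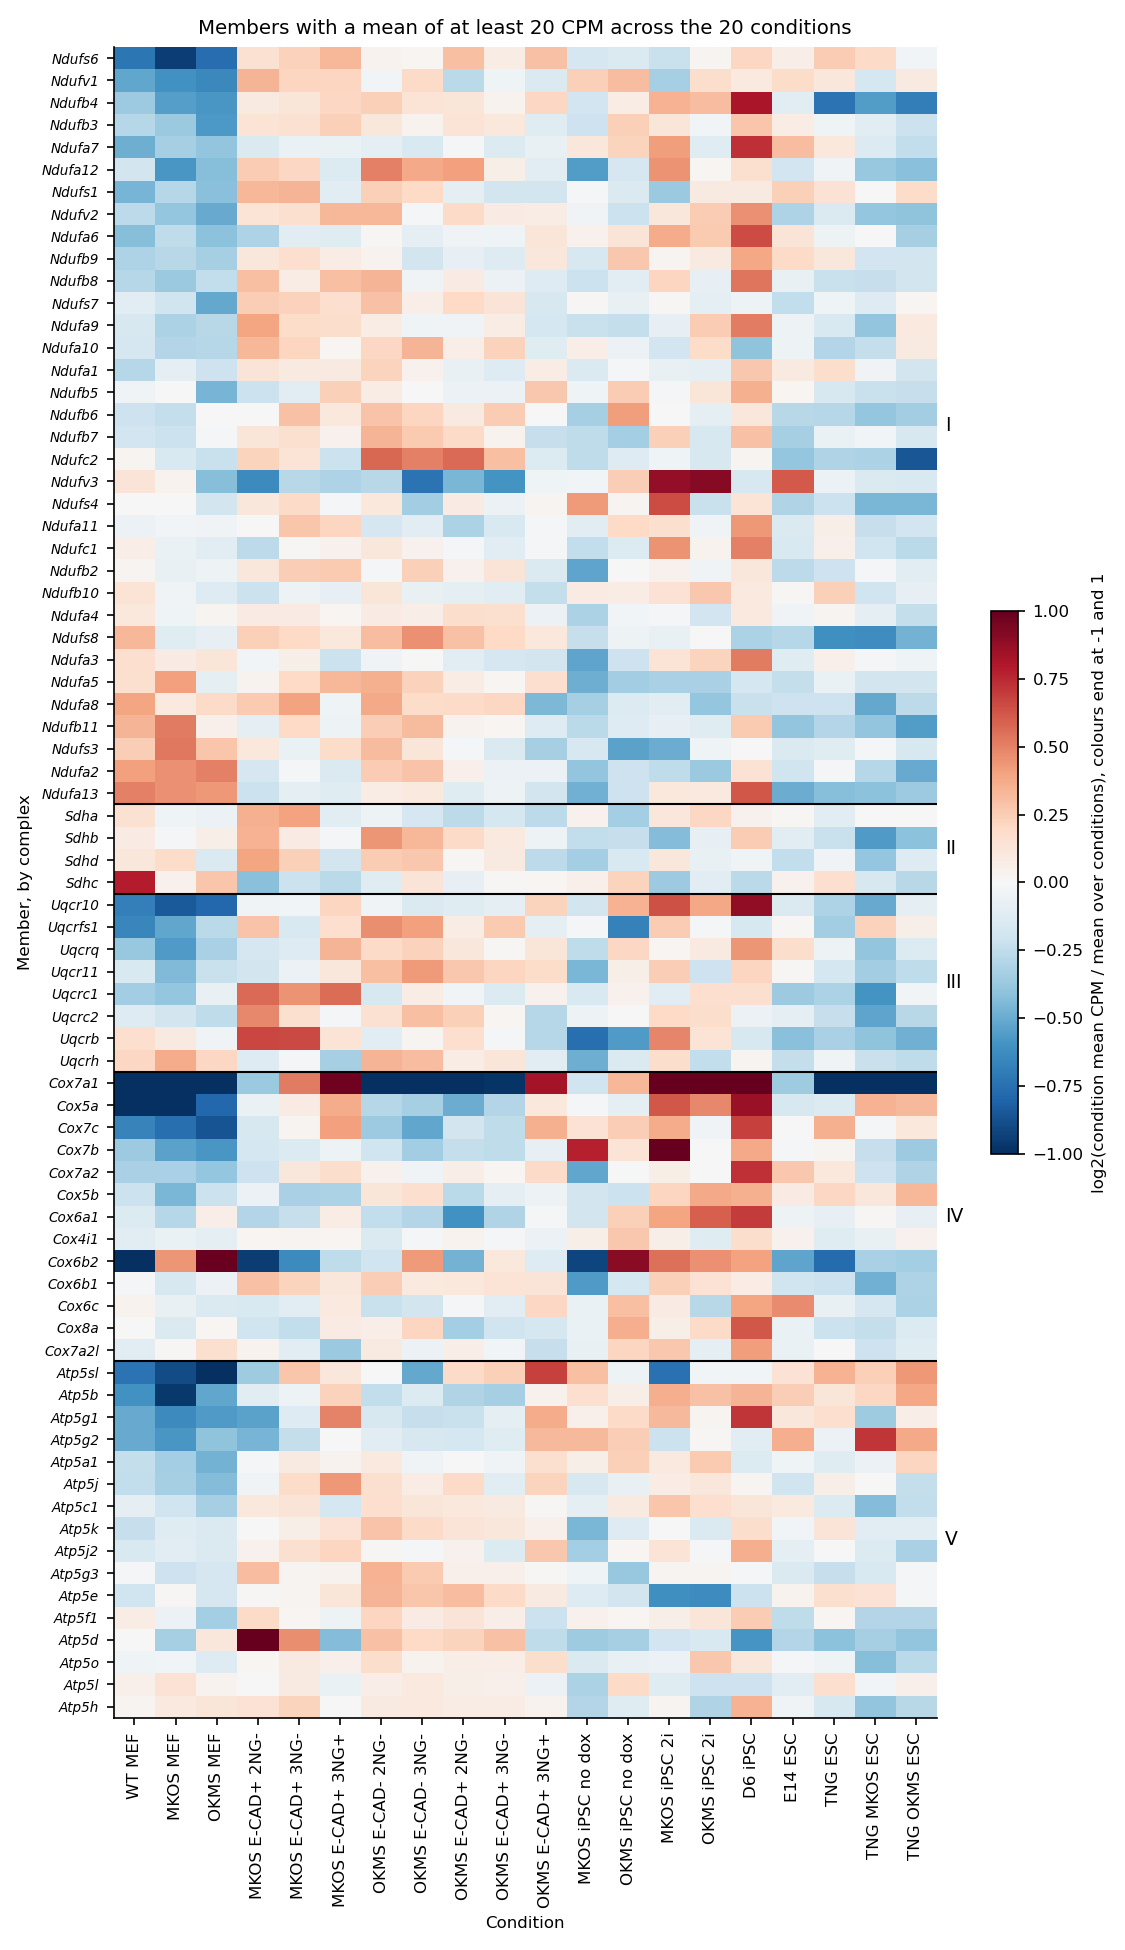
Level of members with a mean of at least 20 CPM (75 rows, grouped by complex and ordered within a complex by the relative level in MEFs) in each of the 20 conditions (columns), as log2 of the condition's mean CPM over the member's mean over conditions. Colours end at -1 and 1. Cox7a1 runs from the low to the high end of the scale, whereas Ndufa4 and Cox4i1 stay pale across all columns.

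Averaged over the groups given here, with all MEF and all ESC conditions pooled, the summed level of the members was lowest in MEFs. It was 31156 ± 1558 CPM (SD, n = 6 libraries) in MEFs, 36271 ± 1155 CPM (n = 6) in the NG- MKOS populations, 36184 ± 2117 CPM (n = 12) in the NG- OKMS populations, 37746 ± 2318 CPM (n = 3) in MKOS 3NG+ cells and 36820 ± 2953 CPM (n = 3) in OKMS 3NG+ cells. iPSCs had 37807 ± 4361 CPM (n = 10) and ESCs 33061 ± 2225 CPM (n = 8). Relative to MEFs these were 1.16 times, 1.16 times, 1.21 times, 1.18 times, 1.21 times and 1.06 times, in that order. The MEF libraries reached 32834 CPM and every library of the 4 sorted groups lay above that, while iPSC and ESC libraries overlapped with MEFs. The iPSC mean includes D6 iPSCs, whose libraries were the highest of the series at 41604 and 45614 CPM. The other iPSC libraries lay between 30388 and 40169 CPM. Without the TNG MKOS and TNG OKMS ESCs the ESC level was 1.12 times that of MEFs. In bulk samples such as these, fewer cells of a type and less RNA per cell cannot be told apart.

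The mean summed level of complex IV was higher, and that of complex II lower, in the NG+ cells than in MEFs. The summed complex IV level was 7594 ± 338 CPM in MEFs, 8999 CPM in NG- MKOS cells, 8591 CPM in NG- OKMS cells, 10301 CPM in MKOS 3NG+ cells, 10146 CPM in OKMS 3NG+ cells, 10939 CPM in iPSCs and 9035 CPM in ESCs. Complex II was 909 ± 112 CPM in MEFs, 953 CPM in NG- MKOS cells, 907 CPM in NG- OKMS cells, 766 CPM in MKOS 3NG+ cells, 765 CPM in OKMS 3NG+ cells, 789 CPM in iPSCs and 740 CPM in ESCs. MEF and 3NG+ libraries overlapped in complex II, with MEFs at 761 to 1073 CPM and 3NG+ cells at 686 to 832 CPM. As a share of the members' reads, complex IV took 24.5%, 25.1% and 27.3% in MKOS 2NG-, 3NG- and 3NG+ cells, and 24.3%, 24.8% and 27.6% in the E-CAD+ OKMS populations, against 28.2% in E14, 27.4% in TNG, 26.8% in TNG MKOS and 27.0% in TNG OKMS ESCs. These sums are descriptions without a test.

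**Figure D2:**
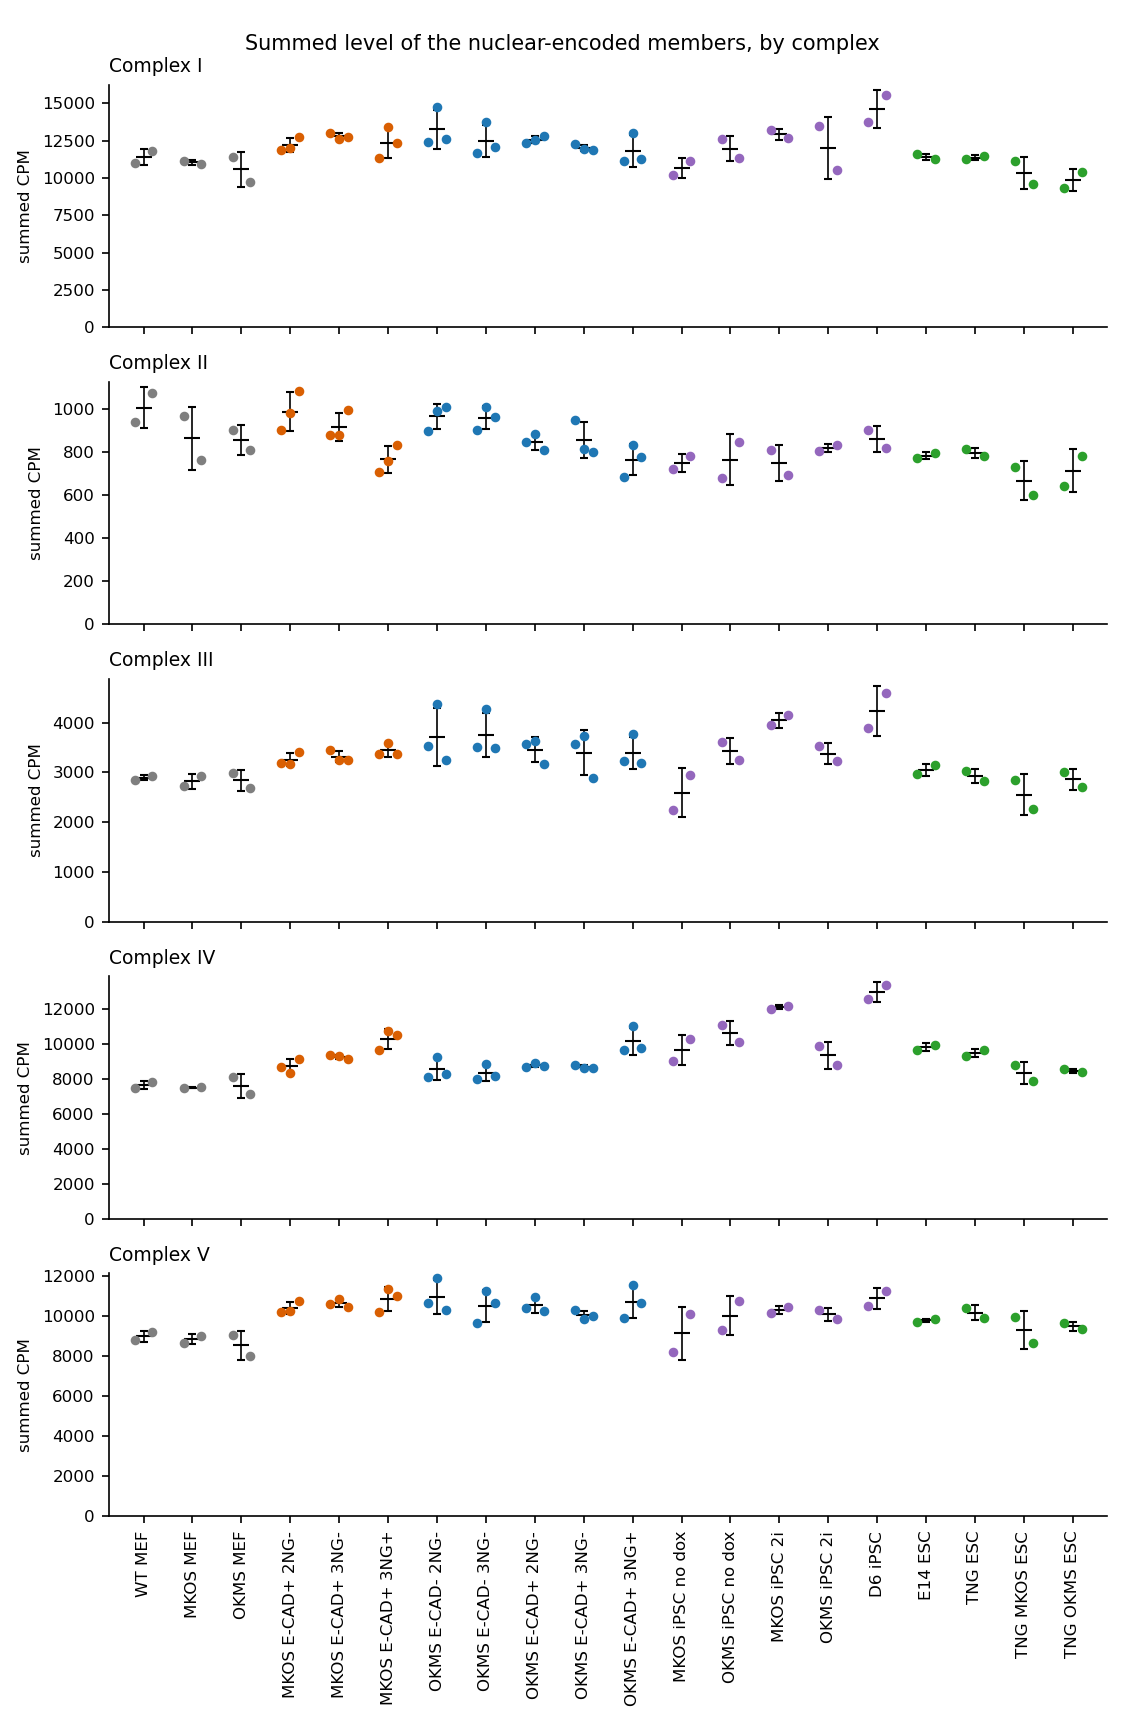
Summed CPM of the members of each complex (1 panel a complex, axes from 0) in every library of the 20 conditions. Points are libraries, dashes means and bars SDs; grey marks MEFs, orange sorted MKOS, blue sorted OKMS, purple iPSCs and green ESCs. In complex IV the 3NG+ populations average 10301 CPM (MKOS) and 10146 CPM (OKMS) and the MEFs 7594 CPM, and in complex II the 3NG+ and ESC libraries lie low.

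The comparison of MEFs with ESCs asks how the 2 end points differ. ESCs had higher RNA for part of complex IV and for the catalytic β subunit of ATP synthase, and complex I held members that were higher and members that were lower. Of the 80 members tested, 23 were higher and 15 lower in the 8 ESC than in the 6 MEF libraries (edgeR quasi-likelihood test over 15630 genes, adjusted p at most 0.05, here called a change). By the same rule 60.1% of all genes changed, 29.6% higher and 30.4% lower, and the members' count was not above that background. The median log2 fold change of the members was 0.04. That balance depended on the scaling: with DESeq2 size factors in place of TMM factors, which moved the median of all genes by -0.13, 15 members were higher and 20 lower and the member median was -0.12. It also depended on the ESC lines whose replicates differed most: 28 were higher and 8 lower without TNG MKOS ESC replicate 2, 26 and 10 without TNG OKMS ESC replicate 1, and 26 and 9 without both of these lines, a fit added after the data were seen. That fit ended the calls named here of Ndufa5, Ndufc2, Sdhb, Sdhc, Uqcrfs1, Cox4i2 and Atp5h (edgeR adjusted p = 0.0807 to 0.451). Fold changes are on the scale of TMM-adjusted libraries and differ slightly from ratios of the CPM given beside them.

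Of the 38 calls, 23 held in every fit that left out 1 library. In complex I, 7 members were higher in ESCs and 9 lower, and 4 and 11 with DESeq2 size factors, with a median log2 fold change of 0.03 or -0.13. Ndufs6, an accessory subunit of the NADH-oxidising arm on chr13:73319876-73328482, rose most. It was at 369 and 360 CPM in WT, 339 and 289 CPM in MKOS and 348 and 362 CPM in OKMS MEFs, and between 586 and 776 CPM in ESCs, with a median of 635 CPM. The groups did not overlap, and the log2 fold change was 0.96 (SE 0.11, edgeR adjusted p = 1.96e-09). Ndufv1, the subunit that binds NADH, was at 113 to 129 CPM in MEFs and averaged 188 CPM in ESCs (log2 fold change 0.69, SE 0.13, edgeR adjusted p = 2.46e-05), and Ndufs1, the largest core subunit, rose by 0.55 on the log2 scale. Ndufa13, also known as GRIM-19, fell: it was at 510 and 595 CPM in WT, 538 and 536 CPM in MKOS and 592 and 463 CPM in OKMS MEFs, and at 263 to 317 CPM in ESCs. No ESC library reached the lowest MEF library, and the log2 fold change was -0.87 (SE 0.12, edgeR adjusted p = 2.59e-08). Ndufa2 fell by 0.68, Ndufb11 by 0.67 and Ndufa8 by 0.49 on the log2 scale, each without overlap, and Ndufs8, Ndufs3, Ndufc2 and Ndufa5 had log2 fold changes of -0.52 to -0.30 with overlapping groups. The Ndufc2 call was lost without any 1 of 4 of the 14 libraries (edgeR adjusted p = 0.0507 to 0.111) and the Ndufa5 call without any 1 of 9 (0.0523 to 0.238).

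Complex II had no higher member. Sdhb was at a mean of 240 CPM in ESCs and 309 CPM in MEFs (log2 fold change -0.34, SE 0.12, edgeR adjusted p = 0.0174) and Sdhc, a membrane anchor, was lower by -0.39, both with overlapping libraries, whereas Sdha did not pass the test (log2 fold change -0.02, 95% interval -0.28 to 0.24). The Sdhb call was lost without MKOS MEF replicate 1, OKMS MEF replicate 1, TNG MKOS ESC replicate 2 or TNG OKMS ESC replicate 1 (edgeR adjusted p = 0.0606 to 0.106), and the Sdhc call without any 1 of 7 of the 14 libraries (0.0514 to 0.228). Complex III had 3 higher and 2 lower members, and 1 and 2 with DESeq2 size factors, with a median of 0.04 or -0.12. In it, Uqcr10 rose by 0.53 without overlap, from a mean of 482 to 690 CPM. Uqcrfs1 passed at 0.48 and Uqcrq at 0.36 on the log2 scale, but neither did with DESeq2 size factors (0.33, edgeR adjusted p = 0.0932, and 0.21, 0.240). The Uqcrfs1 call was also lost without WT MEF replicate 2 (0.053) and the Uqcrq call without any 1 of 7 libraries (0.0536 to 0.169). Uqcrh fell from 1107 to 813 CPM without overlap, Uqcrb fell by 0.45, and Uqcrc1, a core protein of the matrix side, did not pass (log2 fold change -0.03, 95% interval -0.32 to 0.26).

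In complex IV, 8 members were higher and 1 lower of 16 tested, and 5 and 2 with DESeq2 size factors. Its median log2 fold change was 0.21 with TMM factors and 0.06 with DESeq2 size factors or with the mitochondrial transcripts left out. Cox5a, on chr9:57517328-57532427, was at 73.8 and 60.3 CPM in WT, 59.4 and 54.7 CPM in MKOS and 66.3 and 95.7 CPM in OKMS MEFs, and at 108 to 230 CPM in ESCs, with a median of 136 CPM. The groups did not overlap (log2 fold change 1.16, SE 0.14, edgeR adjusted p = 4.29e-09). Cox7c was at 973 to 1285 CPM in MEFs and 1668 to 2554 CPM in ESCs, again without overlap (log2 fold change 0.91, SE 0.13, edgeR adjusted p = 4.89e-08). Cox5b (0.50), Cox7b (0.38) and Cox7a2 (0.34) passed as higher with TMM factors but not with DESeq2 size factors (edgeR adjusted p = 0.0753, 0.0868 and 0.182). The Cox5b call was also lost without OKMS MEF replicate 1 (0.0542), and the Cox7a2 call without OKMS MEF replicate 2 (0.0711) or TNG MKOS ESC replicate 1 (0.0536). The abundant Cox4i1 did not pass (0.08, 95% interval -0.12 to 0.28), nor did Cox6b1 (-0.19, -0.42 to 0.03) or Cox8a (-0.09, -0.34 to 0.16). In complex V, 5 members were higher and 1, Atp5h, a stator subunit, lower, the latter lost without any 1 of 7 libraries (edgeR adjusted p = 0.0548 to 0.213). Atp5b, the catalytic β subunit on chr10:128083307-128090388, was at 560 and 411 CPM in WT, 350 and 406 CPM in MKOS and 497 and 534 CPM in OKMS MEFs, and at 698 to 1171 CPM in ESCs, so every ESC library lay above every MEF library (log2 fold change 0.95, SE 0.10, edgeR adjusted p = 2.90e-11). Atp5a1, the α subunit that alternates with β in the same ring, rose by only 0.38. Of the genes for the c subunit of the rotor, Atp5g1 rose by 0.60 and Atp5g2 by 0.84, while Atp5g3 did not pass (0.02, 95% interval -0.18 to 0.22). Atp5sl rose by 1.20 from a mean of 12.5 CPM.

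**Figure D3:**
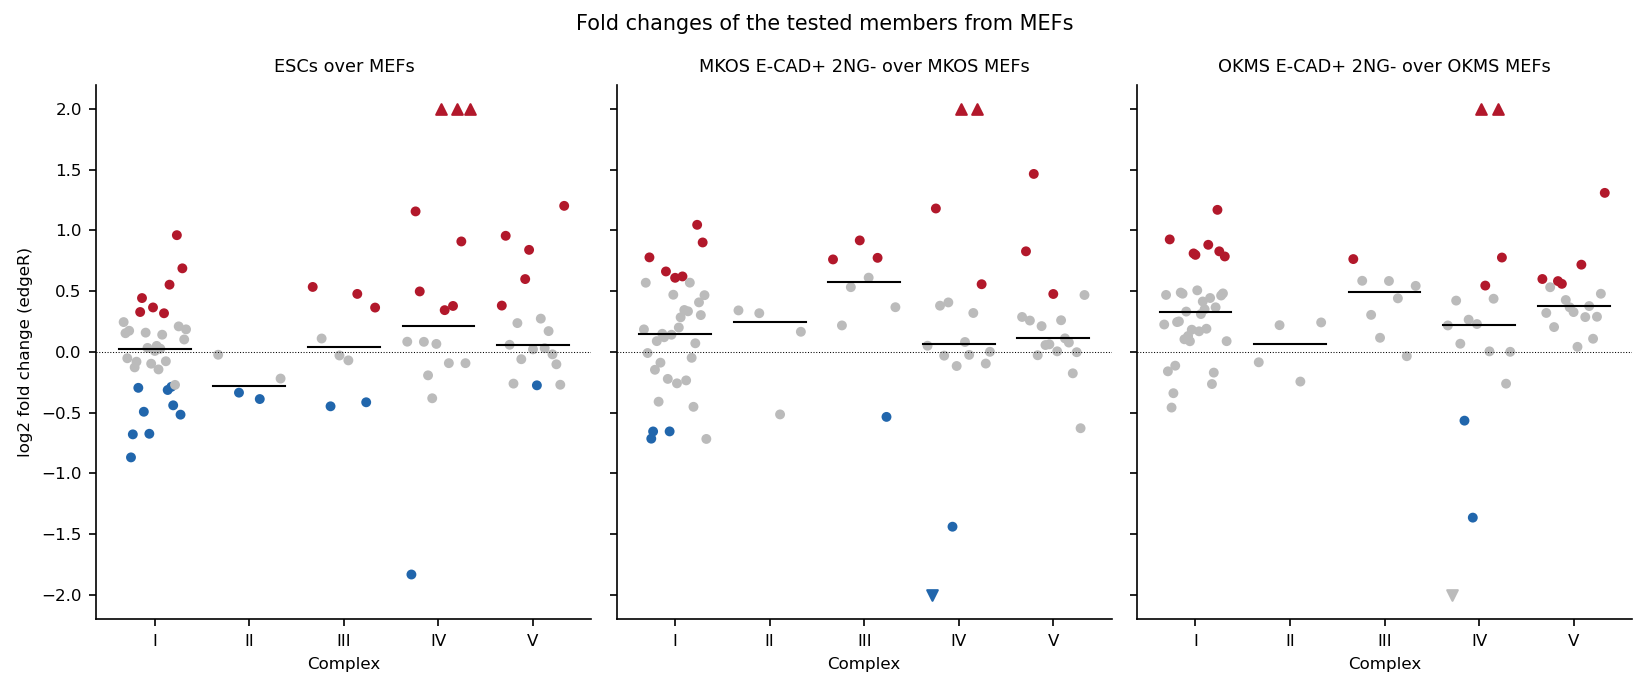
Log2 fold changes of the tested members by complex, in 1 panel each for MEFs to ESCs, MKOS MEFs to 2NG- and OKMS MEFs to 2NG-. Red points are called higher, blue called lower and grey not called, black lines are medians, and triangles stand for the 9 values beyond -2 or 2, all of the complex IV isoforms Cox7a1, Cox7b2, Cox8c and Cox4i2; most other members lie within 1 unit of 0.

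The first sorted stage, E-CAD+ 2NG-, was compared with MEFs of the same cassette to ask which members change early. With MKOS, 16 members were higher and 6 lower in the 3 sorted than in the 2 MEF libraries (27.0% of all genes changed, 15.0% higher and 12.0% lower). With OKMS, 17 were higher and 2 lower (29.2% of all genes, 15.7% higher and 13.5% lower). The member medians were 0.19 and 0.32 on the log2 scale, and 0.05 and 0.19 with DESeq2 size factors, under which 10 were higher and 8 lower with MKOS and 12 higher and 4 lower with OKMS. These comparisons share no library, and 8 members changed in the same direction in both: Cox7a1, Cox7b2, Cox7c, Ndufa12, Ndufb4, Ndufs6 and Uqcr10 were higher and Cox6b2 lower, which is 36.4% of the MKOS and 42.1% of the OKMS changes. Over all genes tested, 62.4% of the MKOS and 57.5% of the OKMS changes were shared in this way, so the members shared no more than genes in general. Without the 7 libraries set aside earlier, 9 members were higher and 7 lower with MKOS and 13 and 2 with OKMS. Each comparison rests on 2 MEF libraries: without replicate 2 of the MKOS MEFs 11 members were called, and without replicate 2 of the OKMS MEFs 7. The calls that held in every fit that left out 1 library were 7 of the 22 with MKOS (Ndufa2, Ndufs6, Cox4i2, Cox5a, Cox7a1, Atp5b and Atp5d) and 3 of the 19 with OKMS (Ndufs6, Ndufs7 and Cox7a1).

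Ndufs6 reached the ESC range at this first stage. It was at 620, 649 and 739 CPM in MKOS 2NG- cells against 339 and 289 CPM in MKOS MEFs, and at 741, 770 and 716 CPM in OKMS 2NG- cells against 348 and 362 CPM in OKMS MEFs. Sorted and MEF libraries did not overlap with either cassette (log2 fold changes 1.05, SE 0.20, edgeR adjusted p = 7.22e-05, and 1.17, SE 0.20, edgeR adjusted p = 1.32e-05). Cox7c was at 1704, 1552 and 2055 CPM in MKOS 2NG- cells against 1140 and 1208 CPM, and at 1570, 1717 and 1931 CPM in OKMS 2NG- cells against 1201 and 973 CPM, without overlap (log2 fold changes 0.56 and 0.78). The MKOS call of Cox7c was lost with DESeq2 size factors (0.41, edgeR adjusted p = 0.144), without the 7 libraries (0.37, 0.269) and without either MEF library or sorted replicate 1 or 3 (0.0679 to 0.201). Uqcr10 rose by 0.76 with both cassettes, from 471 and 446 to 732, 745 and 922 CPM with MKOS and from 492 and 459 to 781, 765 and 713 CPM with OKMS. Ndufa12, an accessory subunit of the NADH arm, rose by 0.78 and 0.92, and Ndufb4 by 0.61 and 0.80, with the caution on its reads given above. Without replicate 2 of the MKOS MEFs the MKOS calls of Uqcr10 (edgeR adjusted p = 0.0569), Ndufa12 (0.309) and Ndufb4 (0.139) were lost, and without replicate 2 of the OKMS MEFs the OKMS calls of Uqcr10 (0.0652), Cox7c (0.156), Ndufa12 (0.129) and Ndufb4 (0.141). Without the 7 libraries the MKOS calls of Ndufa12 (0.0643) and Ndufb4 (0.0913) were lost, and that of Ndufb4 was lost with DESeq2 size factors (0.110) and without MEF replicate 1 or sorted replicate 1 or 3 (0.0622 to 0.128) as well.

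With MKOS alone a further set passed the test. Atp5d, the δ subunit of the ATP synthase central stalk, rose by 1.46, Cox5a by 1.18 from 59.4 and 54.7 to 133, 123 and 144 CPM, Ndufv1 by 0.90 from 119 and 118 to 204, 231 and 248 CPM, and Atp5b by 0.83 from 350 and 406 to 597, 717 and 748 CPM. Uqcrc1 rose by 0.92 from 48.9 and 56.7 to 95.1, 102 and 110 CPM, a call lost without replicate 1 of the MKOS MEFs (0.89, edgeR adjusted p = 0.0588), as the Ndufv1 call was without replicate 2 (0.82, 0.0512). With OKMS none of these passed: Cox5a had 0.42 (95% interval -0.04 to 0.89), Ndufv1 0.48 (0.04 to 0.92), Atp5b 0.32 (0.01 to 0.63), Uqcrc1 0.12 (-0.37 to 0.60) and Atp5d 0.20 (-0.25 to 0.66). The difference between the changes, OKMS minus MKOS, passed the test for 1 member, Atp5d, which was lower, and for 0 in the other direction (1.35% of all genes, 0.793% lower), so the others are not shown to differ between cassettes. The Atp5d call was lost without the 7 libraries (edgeR adjusted p = 0.112) and in 7 of the 10 fits that left out 1 library (0.0554 to 0.298). By edgeR without adjustment 8 members had p under 0.05. Ndufa13 fell by 0.71 with MKOS, to 373, 291 and 345 CPM, although not without replicate 1 of the MKOS MEFs (-0.63, edgeR adjusted p = 0.0664), and had -0.46 with OKMS (95% interval -0.84 to -0.07, edgeR adjusted p = 0.0737). Ndufa2 fell by 0.66 with MKOS. Ndufb11 and Uqcrh passed as lower with MKOS at -0.66 and -0.54, but Ndufb11 lost its call when replicate 1 or 2 of the MKOS MEFs or replicate 1 or 3 of the sorted cells was left out (edgeR adjusted p = 0.0529 to 0.129), and Uqcrh when any of the 5 libraries was (0.0664 to 0.144).

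With OKMS alone another set passed, in part with TMM factors only: complex V had 5 higher members, and 2 with DESeq2 size factors. Ndufc2, a membrane-arm subunit, rose by 0.88 from a mean of 371 to 639 CPM, a call lost without replicate 2 of the OKMS MEFs (0.68, edgeR adjusted p = 0.0652). Ndufs7, a core iron-sulphur subunit, rose by 0.83, and Ndufb3 by 0.81, the latter lost without replicate 2 of the OKMS MEFs (edgeR adjusted p = 0.150). Ndufv2, a partner of Ndufv1, passed at 0.78, Atp5j at 0.72, Atp5e at 0.58, Atp5f1 at 0.56 and Cox7a2 at 0.55, but with DESeq2 size factors none of these did (edgeR adjusted p = 0.0799, 0.0541, 0.0801, 0.143 and 0.130), nor without replicate 2 of the OKMS MEFs (0.217 to 0.439). Without the 7 libraries the calls of Ndufv2 (0.110), Atp5e (0.0893), Atp5f1 (0.115) and Cox7a2 (0.161) were lost too. Leaving out sorted replicate 3 alone ended the calls of Ndufv2 (edgeR adjusted p = 0.106), Atp5e (0.0582), Atp5f1 (0.0929) and Cox7a2 (0.121), replicate 1 those of Atp5f1 (0.0671) and Cox7a2 (0.071), and replicate 2 that of Atp5f1 (0.073). Atp5a1 rose by 0.60, a call lost without replicate 1 of the OKMS MEFs (0.0664). Atp5sl rose by 1.31 but not without replicate 1 of the OKMS MEFs (1.00, edgeR adjusted p = 0.174), and Cox6a1, lower by 0.57 with OKMS, lost its call when either MEF library or replicate 2 or 3 of the sorted cells was left out (edgeR adjusted p = 0.0507 to 0.0883), and without the 7 libraries (0.0654). Complex II had no call with either cassette. Sdha had log2 fold changes of 0.34 (95% interval -0.10 to 0.78) with MKOS and -0.09 (-0.53 to 0.35) with OKMS, and Cox4i1 0.05 (-0.29 to 0.39) and 0.22 (-0.12 to 0.55). Fibroblast markers moved with this comparison: they summed to 1502, 790 and 981 CPM in MKOS and 252, 354 and 498 CPM in OKMS 2NG- cells, and their part in the members' changes was not tested.

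**Figure D4:**
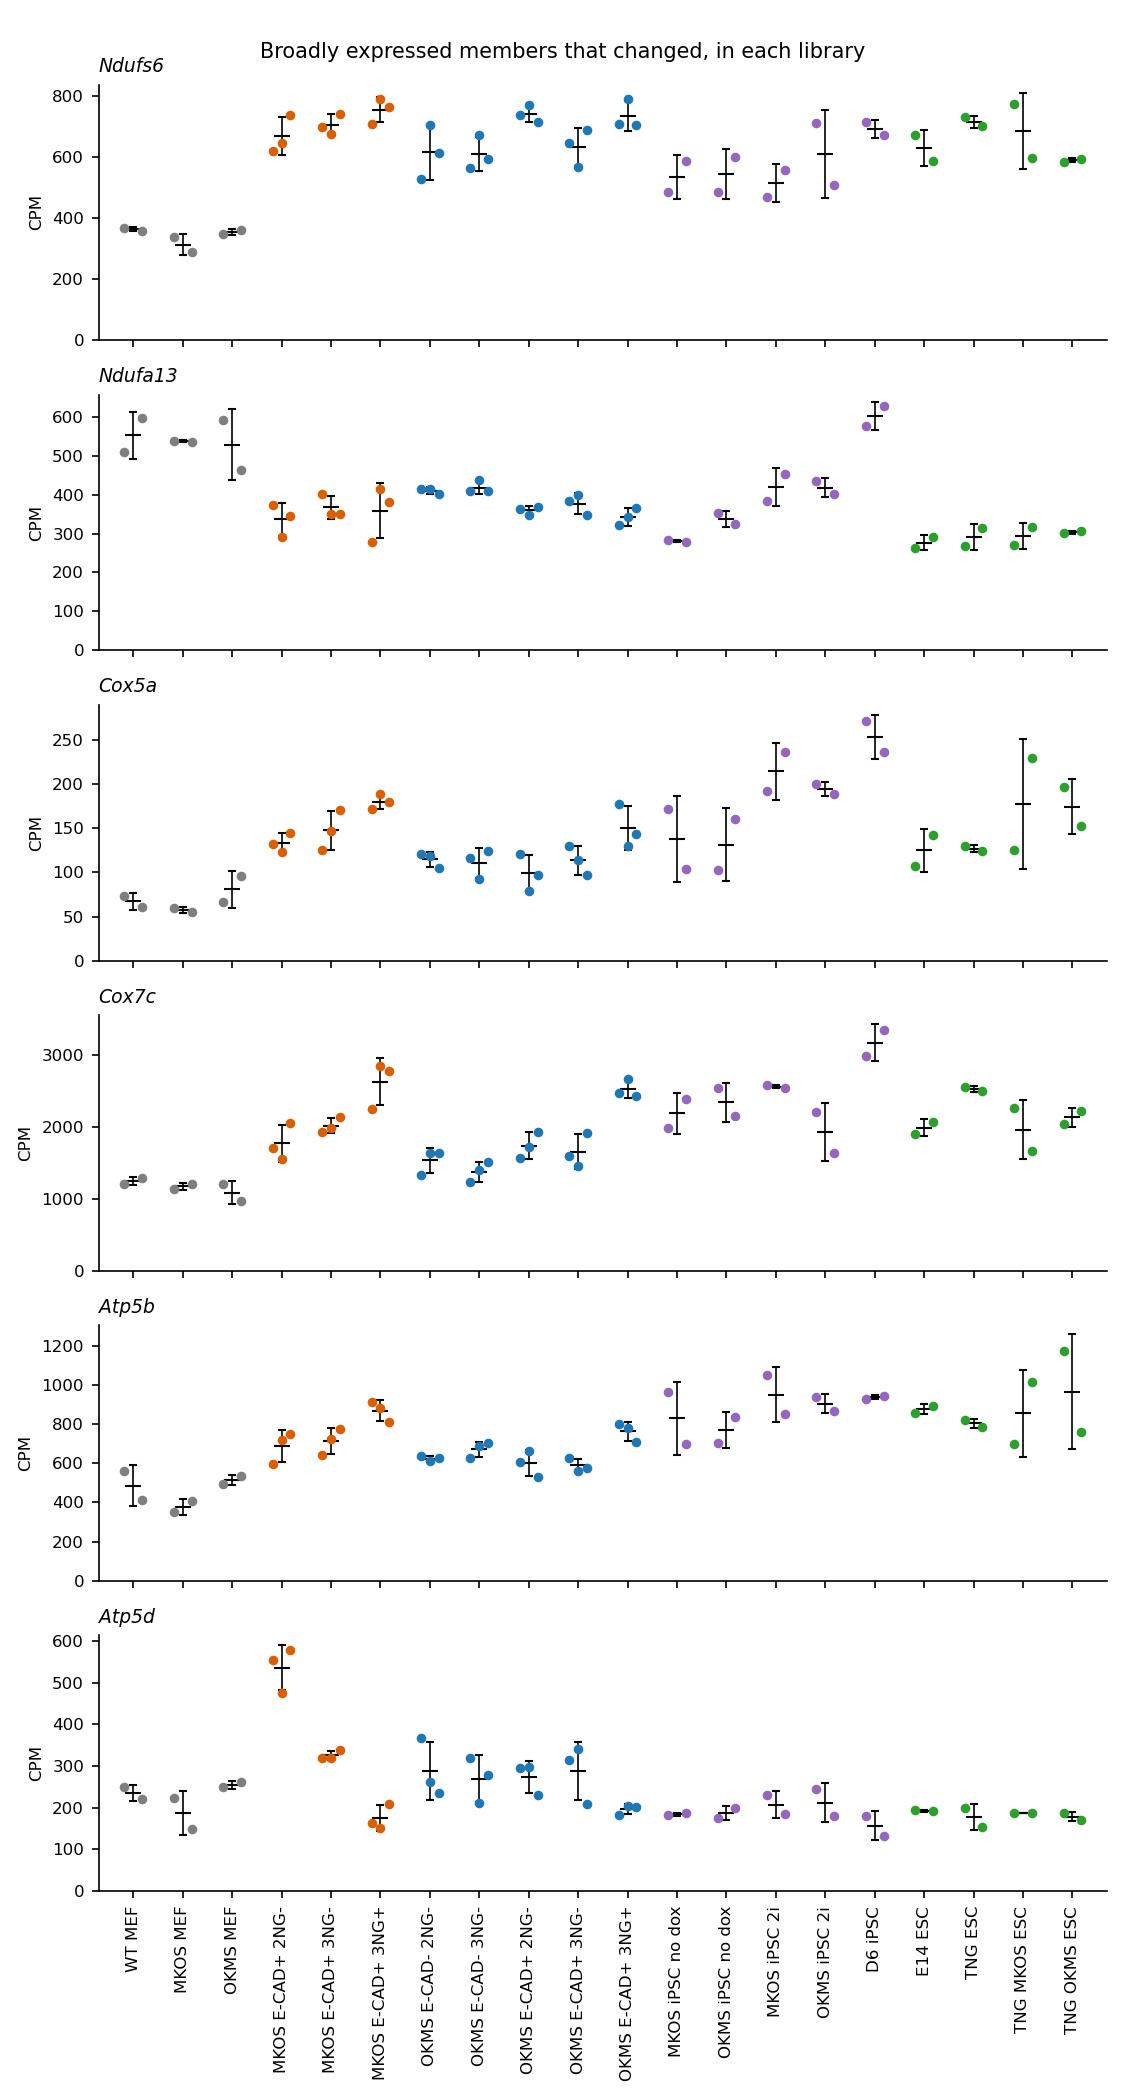
CPM of 6 broadly expressed members (1 panel each, axes from 0) in every library of the 20 conditions; points are libraries, dashes means and bars SDs, coloured by kind of sample (grey MEFs, orange sorted MKOS, blue sorted OKMS, purple iPSCs, green ESCs). Ndufs6 steps up between MEFs and all sorted populations, Cox7c is highest in 3NG+ cells and D6 iPSCs, Ndufa13 is highest in MEFs and D6 iPSCs, and Atp5d stands out in the 3 MKOS 2NG- libraries at 475 to 578 CPM.

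The widest changes were those of tissue-restricted complex IV isoforms. Cox7a1, the heart and muscle form of subunit 7a, was scarcely expressed in MEFs, at 3.77 and 5.48 CPM in WT, 1.23 and 4.87 CPM in MKOS and 2.41 and 1.83 CPM in OKMS libraries. With MKOS the 2NG- libraries had 24.0, 28.2 and 30.2 CPM, the 3NG- libraries 37.3, 61.7 and 54.5 CPM and the 3NG+ libraries 69.2, 89.5 and 51.2 CPM. With OKMS it was at 10.7, 6.12 and 22.9 CPM in E-CAD+ 2NG-, 17.6, 16.2 and 20.2 CPM in E-CAD+ 3NG- and 94.2, 51.1 and 44.8 CPM in 3NG+ cells. Every sorted E-CAD+ library lay above every MEF library, and ESCs, at 10.5 to 30.6 CPM, were between MEFs and the 3NG+ cells. The fitted log2 fold changes were 2.50 from MEFs to ESCs (SE 0.32, edgeR adjusted p = 7.87e-09), 3.28 from MKOS MEFs to 2NG- (SE 0.56, edgeR adjusted p = 1.84e-05) and 2.86 from OKMS MEFs to 2NG- (SE 0.57, edgeR adjusted p = 1.34e-04). Cox7a1 still made up a small part of its isoform set: Cox7a2, the broadly expressed form, held 79.7% of the Cox7a1, Cox7a2 and Cox7a2l reads in MKOS 3NG+ cells and Cox7a1 4.08%, against 0.227% in MKOS MEFs. Cox7a2l, a factor of respiratory supercomplexes, held 27.2% in MKOS MEFs and 16.2% in MKOS 3NG+ cells.

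Cox7b2, the testis form of subunit 7b on chr5:71442823-71548205, had 0 reads in all 6 MEF libraries. ESCs had 325 reads in 8 libraries, at least 73.5-fold higher when the MEFs are set at a floor of 3 reads over the group (edgeR adjusted p = 1.35e-09). In MKOS cells it was at 0.918, 0.443 and 0.948 CPM in 2NG-, 7.37, 3.93 and 11.4 CPM in 3NG- and 51.9, 143 and 42.2 CPM in 3NG+ libraries. In OKMS E-CAD+ cells it was at 1.02, 0 and 1.76 CPM in 2NG-, 2.59, 0 and 3.53 CPM in 3NG- and 62.0, 50.4 and 32.2 CPM in 3NG+ libraries. The 3NG+ populations of both cassettes were above all ESC libraries, which lay between 2.61 and 9.56 CPM. All iPSC libraries held reads too. These ran from 6 among 5693036 transcript reads in OKMS 2i replicate 2 to 191 among 4625658 in MKOS 2i replicate 1. The latter lay above OKMS 3NG+ replicate 3, so iPSCs and 3NG+ cells overlapped. From MEFs to 2NG- the rise was at least 3.78-fold with MKOS (19 against 0 reads, edgeR adjusted p = 0.0346) and at least 6.30-fold with OKMS (31 against 0 reads, edgeR adjusted p = 0.00937). Both calls were lost without the 7 libraries set aside earlier (edgeR adjusted p = 0.0644 and 0.0745). The MKOS call was also lost without either MEF library or replicate 1 or 3 of the sorted cells (0.0631 to 0.224), and the OKMS call without MEF replicate 2 or sorted replicate 3 (0.123 and 0.065). Cox7b remained the main form throughout. Cox7b2 held 5.50% of the pair in MKOS 3NG+ cells, 3.64% in OKMS 3NG+ cells and 0.199% to 0.420% in TNG and E14 ESCs. Cox7b held 99.3% of the pair in TNG OKMS and 99.7% in TNG MKOS ESCs.

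Cox4i2, the alternative form of Cox4i1, had 27 to 97 reads in each MEF library (4.93 to 9.93 CPM) and 3, 0 and 0 reads in the MKOS 2NG- libraries, so all MKOS 2NG- libraries lay below all MEFs. Pooled, this was 71.6-fold lower than in MKOS MEFs, with a 95% counting interval of 23.9 to 352. In OKMS 2NG- cells there were 0, 0 and 36 reads, and the library with 36 was replicate 3. From MEFs to ESCs Cox4i2 passed as lower at -1.83 (edgeR adjusted p = 0.0498), a call that held without TNG OKMS ESC replicate 1 but was lost on leaving out any of the other 13 libraries (0.0514 to 0.113). Cox4i1 held at least 98.8% of the pair in every condition shown here. Cox6b2, the testis form of subunit 6b on chr7:4751792-4753094, differed among MEFs: it was at 59.9 and 60.6 CPM in WT but 300 and 232 CPM in MKOS and 405 and 374 CPM in OKMS MEFs. In 2NG- cells it was at 93.8, 80.2 and 131 CPM with MKOS and 152, 136 and 134 CPM with OKMS, below the MEFs of the same cassette and above the WT MEFs. The falls from the same-cassette MEFs were -1.44 with MKOS (edgeR adjusted p = 0.0156) and -1.36 with OKMS (edgeR adjusted p = 0.0204). The first was lost without MEF replicate 1 (-1.15, 0.152) or sorted replicate 2 (-1.29, 0.0698), and the second without MEF replicate 1 (-1.19, 0.124) or sorted replicate 2 (-1.30, 0.0609).

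Other isoforms stayed at or near 0. Cox8c, a testis form of subunit 8, had 54 reads in ESCs and 0 in MEFs, at least 12.2-fold higher (edgeR adjusted p = 0.00474), with an adjusted p of 0.057 by DESeq2. The edgeR fit without TNG MKOS ESC replicate 1, which held 1 of these reads, gave no usable estimate for this gene. Cox6a2, a muscle form, had 1 read in each of 2 MEF libraries and 0 in ESCs, and Cox8b 0 in both. Among the c subunit genes, Atp5g3 held 52.7% of the reads of the 3 genes in MKOS MEFs and 38.9% in MKOS 3NG+ cells, and Atp5g1 39.0% and 53.2%. In OKMS cells Atp5g1 went from 39.0% in MEFs to 50.4% in 3NG+ cells. These shares are given without a test.

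**Figure D5:**
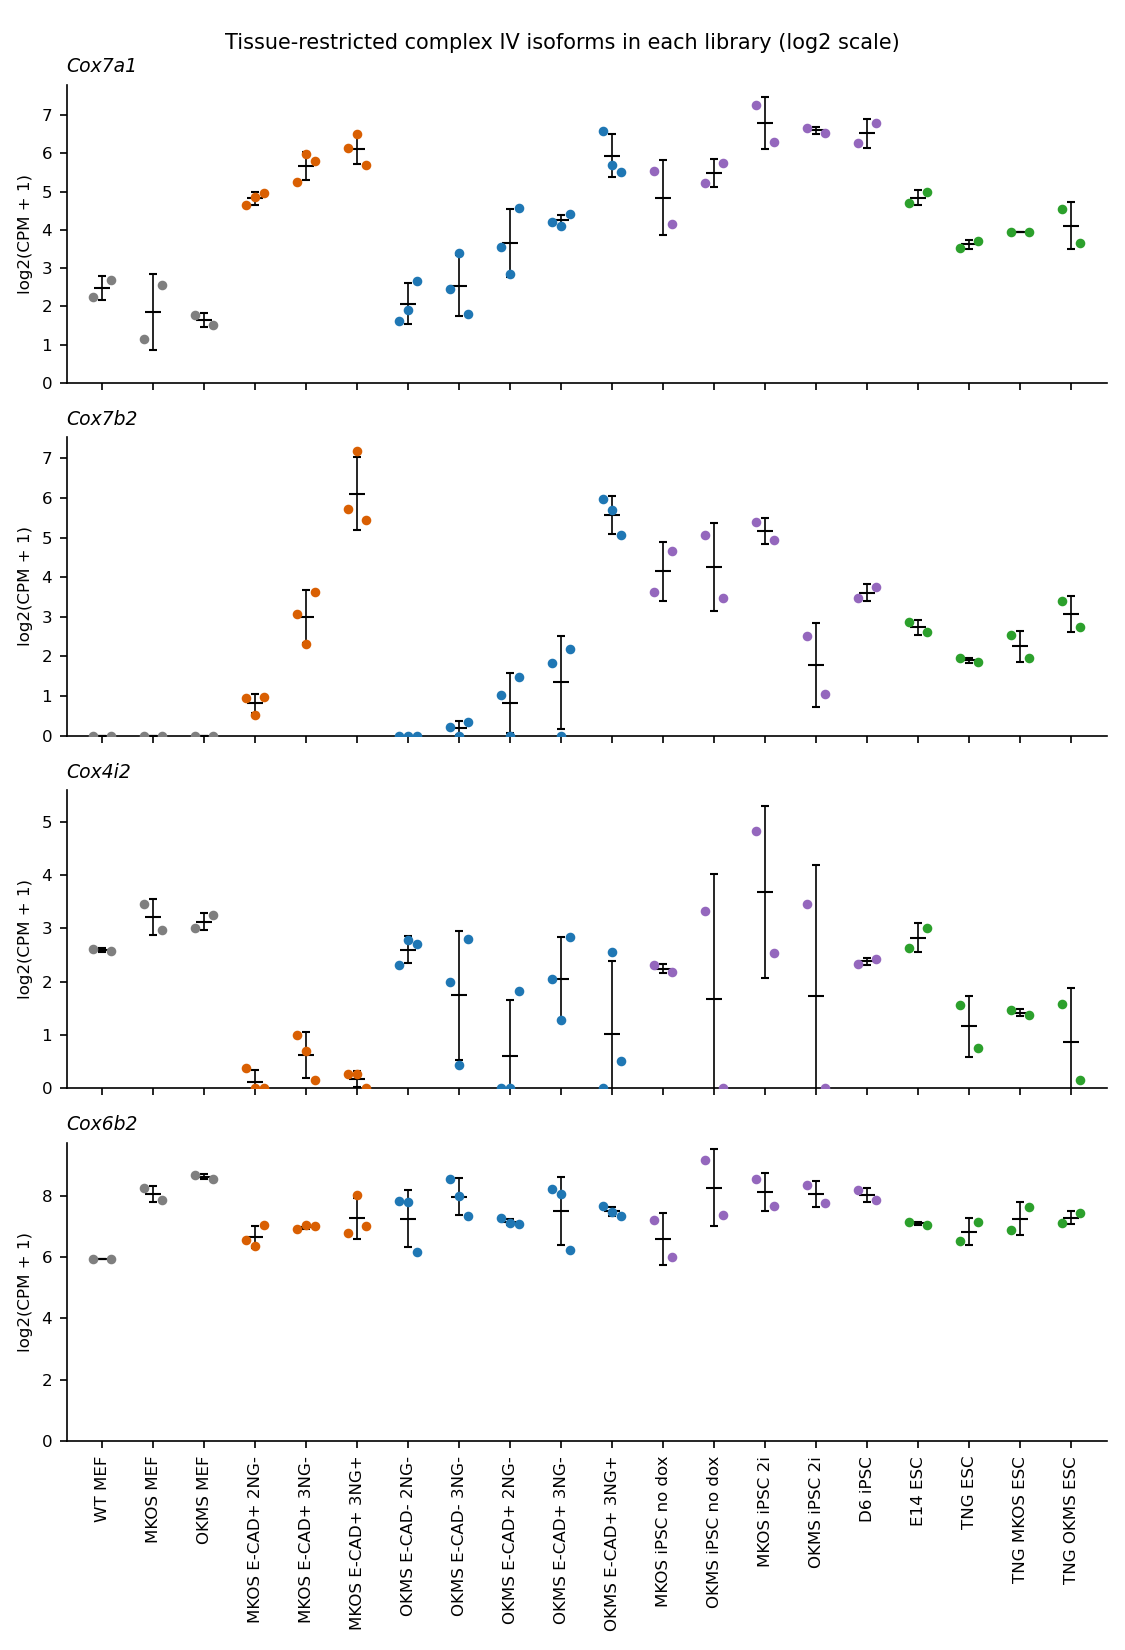
Log2(CPM + 1) of the complex IV isoforms Cox7a1, Cox7b2, Cox4i2 and Cox6b2 (1 panel each) in every library of the 20 conditions; points are libraries, dashes means and bars SDs, with bars stopped at 0, and colours as for the broadly expressed members (grey MEFs, orange sorted MKOS, blue sorted OKMS, purple iPSCs, green ESCs). Cox7b2 is at 0 in all MEFs and OKMS E-CAD- 2NG- libraries and highest in the 3NG+ populations, and the WT MEFs have the lowest Cox6b2 of the MEFs.

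The cassettes were next compared at the same sorted stage, to see whether members differ between routes. In 2NG- cells 1 member was higher with MKOS and 0 lower (5.07% of all genes changed, 2.84% higher and 2.23% lower), in 3NG- cells 0 (2.17%, 1.38% higher and 0.787% lower) and in 3NG+ cells 0 (0.685%, 0.345% higher and 0.339% lower). With the compared conditions alone in the fit, 1 member was higher and 3 were lower with MKOS in 2NG- cells, so the balance turned. By edgeR without adjustment, 10, 8 and 4 members had p under 0.05 in the 3 stages, and DESeq2 called 1 member in 3NG- cells and 0 in 3NG+ cells. The 95% interval of the difference stayed within 2-fold for 72, 73 and 74 of the 80 members. Among those that reached further were the complex IV isoforms Cox7b2, Cox4i2 and Cox6b2 at all 3 stages. The summed level in 2NG- cells was 35580 ± 1331 CPM with MKOS and 36202 ± 624 CPM with OKMS E-CAD+ (n = 3 each), and in 3NG- cells 36961 ± 364 CPM and 35006 ± 863 CPM, the OKMS 3NG- libraries all lying below the MKOS ones; these sums were not tested.

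Atp5d, on chr10:80138698-80145828, was the single call. It was at 554, 475 and 578 CPM in MKOS 2NG- cells and 295, 298 and 230 CPM in OKMS E-CAD+ 2NG- cells, without overlap (log2 fold change 0.88, SE 0.21, edgeR adjusted p = 0.00691). With MKOS the 3NG- libraries had 320, 319 and 338 CPM and the 3NG+ libraries 164, 150 and 209 CPM, and with OKMS 315, 341 and 208 CPM and 183, 205 and 203 CPM, and neither later difference passed (0.06, 95% interval -0.35 to 0.47, and -0.33, -0.74 to 0.09). MEFs were at 149 to 262 CPM and ESCs averaged 184 CPM, which makes the MKOS 2NG- level the highest of the series. The call between cassettes was lost without replicate 3 of the OKMS 2NG- cells (0.81, edgeR adjusted p = 0.0511) and without the 7 libraries (0.70, 0.125). The pluripotency markers summed to 3084, 3208 and 4131 CPM in the MKOS and 1116, 890 and 3383 CPM in the OKMS 2NG- libraries. Of the 10 fibroblast markers 5 were called higher with MKOS, and their part in this difference was not tested. Cox7a1 had a difference of 1.38 in 3NG- cells (95% interval 0.57 to 2.18, edgeR adjusted p = 0.0678) and -0.02 in 3NG+ cells (-0.81 to 0.76), and Sdha had 0.52 in 2NG- cells (0.12 to 0.91, edgeR adjusted p = 0.141).

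The step to Nanog-GFP was compared within each cassette. In OKMS cells, from E-CAD+ 3NG- to 3NG+, 6 members rose and 0 fell (6.26% of all genes changed, 3.06% higher and 3.21% lower), 3 of complex IV, 2 of complex V and 1 of complex III. Cox7b2 rose by 4.71 (SE 0.71, edgeR adjusted p = 5.19e-05) and Cox7a1 by 2.03 (SE 0.42, edgeR adjusted p = 0.00201), with the library values given above and no overlap. Cox7c was at 1591, 1456 and 1919 CPM before and 2469, 2670 and 2432 CPM after, a rise of 0.81 (SE 0.19, edgeR adjusted p = 0.00577) that was lost without 3NG- replicate 2 (0.72, 0.0577). Atp5b rose by 0.58 from 628, 561 and 577 to 800, 779 and 708 CPM, a call lost without 3NG- replicate 2 (edgeR adjusted p = 0.0648) or 3NG+ replicate 1 (0.0617). Atp5j2, the f subunit of the membrane part, rose by 0.61, lost without 3NG- replicate 1 or 2 or 3NG+ replicate 1 (edgeR adjusted p = 0.0717 to 0.0923), and Uqcr10 by 0.53, lost on leaving out any of the 6 libraries (0.0694 to 0.134) or the 7 (0.0946). In the same step with MKOS only Cox7b2 passed (3.57, SE 0.65, edgeR adjusted p = 0.00184). Of all genes 1.58% changed with MKOS, 0.557% higher and 1.02% lower. DESeq2 called 3 members higher and 1 lower with MKOS, and 12 higher and 0 lower with OKMS. Without the filter, or with the compared conditions alone, 2 were higher and 1 lower with MKOS. In the main fit with MKOS, Cox7c had 0.56 (95% interval 0.20 to 0.93, edgeR adjusted p = 0.108) and Atp5b 0.46 (0.18 to 0.74, 0.0827). Cox7a1 had 0.63 (-0.15 to 1.41) and Atp5d -0.72 (-1.13 to -0.31, 0.0629). The member medians were 0.17 with OKMS and 0.16 with MKOS, and those of complex IV 0.30 and 0.42. Whether these steps differ between cassettes was not tested. Markers moved with the step: with OKMS 8 of 10 pluripotency markers were higher and 2 of 7 epithelial markers lower, and with MKOS 0 of 10 and 3 of 7, while 0 of 10 fibroblast markers were called with either. Pluripotency markers summed to 2474, 1710 and 5735 CPM in OKMS 3NG- and 16412, 16733 and 15345 CPM in OKMS 3NG+ libraries, replicate 3 of the 3NG- cells standing apart. Their part in the members' changes was not tested.

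Within the OKMS NG- cells the calls between E-CAD states were of 2 isoforms. Between the 6 E-CAD- and the 6 E-CAD+ libraries 2 members were higher and 0 lower (7.08% of all genes changed, 4.69% higher and 2.39% lower), and 75 of 80 intervals stayed within 2-fold. Cox7a1 was at 2.09, 2.75 and 5.38 CPM in E-CAD- 2NG- and 4.46, 9.41 and 2.45 CPM in E-CAD- 3NG- cells, against 6.12 to 22.9 CPM in the E-CAD+ libraries. The groups overlapped in 1 library on each side, and the log2 fold change was 2.02 (SE 0.33, edgeR adjusted p = 3.75e-05). Cox7b2 had 2 reads in the E-CAD- and 75 in the E-CAD+ libraries, a ratio of 23.6 with a 95% counting interval of 6.30 to 198 (edgeR adjusted p = 0.00146), lost without the 7 libraries (0.0874). The member median was 0.04, and -0.01 with DESeq2 size factors. Markers moved with the E-CAD state: of the fibroblast markers 8 of 10 were lower, and of the pluripotency and epithelial markers 9 of 10 and 7 of 7 higher, in E-CAD+ cells. Fibroblast markers summed to 1287 to 1930 CPM in the E-CAD- and 252 to 747 CPM in the E-CAD+ libraries, pluripotency markers to 244 to 356 and 890 to 5735 CPM, and epithelial markers to 77.3 to 229 and 781 to 1225 CPM. Their part in the isoforms' difference was not tested.

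Between iPSCs and ESCs the members that changed were lower in ESCs. From MKOS and OKMS iPSCs without doxycycline to TNG MKOS and TNG OKMS ESCs, with 4 libraries a side, 5 members were lower and 0 higher. Of all genes 1.40% changed, 0.269% higher and 1.13% lower. DESeq2 called 13 members lower and 0 higher. Cox7b was at 2151 and 2474 CPM in MKOS and 1630 and 1333 CPM in OKMS iPSCs, and at 1219 and 1076 CPM in TNG MKOS and 1008 and 1082 CPM in TNG OKMS ESCs, without overlap (log2 fold change -0.90, SE 0.14, edgeR adjusted p = 1.84e-04). Ndufs4, a subunit that stabilises the NADH arm, was at 595, 570, 502 and 384 CPM in iPSCs and 325, 307, 312 and 318 CPM in ESCs, also without overlap (-0.83, SE 0.16, edgeR adjusted p = 0.00266), a call lost without TNG MKOS ESC replicate 2 (-0.73, 0.0521). Ndufb4 fell by 0.71, Cox7a1 by 1.42 and Uqcr10 by 0.53 on the log2 scale. The Ndufb4 call was lost without OKMS iPSC replicate 1, TNG MKOS ESC replicate 2 or TNG OKMS ESC replicate 1 (edgeR adjusted p = 0.08 to 0.184). The Cox7a1 call was lost without MKOS iPSC replicate 1, OKMS iPSC replicate 2, TNG MKOS ESC replicate 2 or either TNG OKMS ESC library (0.0603 to 0.208), and the Uqcr10 call without 5 of the 8 libraries (0.0704 to 0.309). With only these 4 conditions in the fit the calls of Cox7b (edgeR adjusted p = 0.168), Ndufs4 (0.206), Ndufb4 (0.317) and Uqcr10 (0.501) were lost too. The member median was -0.26 and that of complex IV -0.43. The number of calls ranged from 1 without TNG MKOS ESC replicate 2 to 15 without replicate 1, and was 2 without TNG OKMS ESC replicate 1 and 7 without replicate 2. These are the ESC lines whose replicates differed most, and of the fibroblast, pluripotency and epithelial markers 0 were called.

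The same iPSCs, which serve as controls in both comparisons, were set against their 2i cultures. Here 2 members were higher and 1 lower in 2i (4.34% of all genes changed, 1.89% higher and 2.45% lower), and the member median was -0.00. Uqcrb, a small complex III subunit, was at 99.9, 100, 116 and 112 CPM without and 205, 268, 193 and 180 CPM with 2i, so no library overlapped (log2 fold change 0.88, SE 0.17, edgeR adjusted p = 8.19e-04). Cox7a1 went from 45.3, 16.7, 36.5 and 52.9 CPM to 77.9 CPM or more in all 4 libraries (1.39, SE 0.35, edgeR adjusted p = 0.0128), and the call was lost without MKOS iPSC replicate 2, OKMS iPSC replicate 1 or MKOS 2i replicate 1 (0.0757 to 0.125). Atp5e, the ε subunit of the central stalk, went from 752, 838, 842 and 692 to 581, 556, 647 and 481 CPM (-0.57, SE 0.14, edgeR adjusted p = 0.0141), lost without MKOS iPSC replicate 2, OKMS iPSC replicate 1, MKOS 2i replicate 1 or OKMS 2i replicate 2 (0.0541 to 0.102). Markers moved with 2i as well: 3 of 10 pluripotency markers (Utf1, Dppa4 and Tdgf1) and 3 of 7 epithelial markers (Esrp1, Epcam and Cldn6) were lower, and 0 of 10 fibroblast markers were called. Utf1 went from 110 to 156 CPM without to 1.05 to 14.8 CPM with 2i. The part of these markers in the members' changes was not tested. D6 iPSCs had the largest share of reads on the members of any condition, at 4.16% and 4.56%, and Ndufa13, low in other pluripotent cells, was at 575 and 627 CPM there.

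Other genes of the pathway were counted from lists drawn up by function. Of 31 assembly factors tested, which help to build the complexes without being part of them, 11 were higher and 4 lower in ESCs than in MEFs, 9 and 0 in MKOS 2NG- cells and 10 and 0 in OKMS 2NG- cells. These were 48.4%, 29.0% and 32.3% of the list, against 60.1%, 27.0% and 29.2% of all genes called in either direction. At the 2NG- stage all calls of the list were higher, where 15.0% (MKOS) and 15.7% (OKMS) of all genes were higher. Ecsit and Lrpprc, factors of complex I assembly and of mitochondrial mRNA, rose by 1.91 and 1.61 from MEFs to ESCs, and Tmem70, a factor of ATP synthase assembly, fell by 1.73. Cox17, a copper chaperone for complex IV, rose by 1.66 with MKOS and 1.31 with OKMS in 2NG- cells, and Ndufaf4 by 2.27 and 1.61. Of 16 regulators of mitochondrial genes tested, 11, 4 and 7 were higher and 0 lower in the same 3 comparisons. This is 68.8%, 25.0% and 43.8% of the list, beside 29.6%, 15.0% and 15.7% of all genes higher. Tfam, the packaging and transcription factor of mitochondrial DNA, rose by 1.57 in ESCs and by 2.10 in OKMS 2NG- cells.

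Of 12 genes of cytochrome c and the carriers tested, 5 were higher and 4 lower in ESCs (75.0% against 60.1% of all genes). Slc25a4, the heart and muscle ADP/ATP carrier, fell by 2.70 (edgeR adjusted p = 5.93e-17) and Slc25a5, the carrier of dividing cells, rose by 1.33. Slc25a31, the testis carrier, rose by 5.22. Cyct, testis cytochrome c, had 1636 reads in ESCs and 0 in MEFs, at least 370-fold higher, and averaged 35.1 CPM in MKOS 3NG+ and 22.7 CPM in OKMS 3NG+ cells. Slc25a4 averaged 1098, 1134 and 1007 CPM in WT, MKOS and OKMS MEFs, 712 CPM in MKOS and 631 CPM in OKMS E-CAD+ 2NG- cells, and 184 CPM in MKOS and 230 CPM in OKMS 3NG+ cells. Cycs, the somatic cytochrome c, rose by 1.42 and 0.98 from MEFs to 2NG- cells with MKOS and OKMS, and Cyc1 rose by 1.39 in ESCs. Of the 35 mitochondrially encoded rows tested, which include transfer RNA genes, 2 were higher and 12 lower in ESCs (40.0% against 60.1% of all genes). The higher rows were mt-Co1, the catalytic subunit of complex IV, by 0.71, and the transfer RNA mt-Tf by 0.93. The rows that fell most were the transfer RNAs mt-Tl2 (-6.37), mt-Tm (-2.54) and mt-Te (-1.79). The summed level of all rows was 76933 CPM in MEFs and 68566 CPM in ESCs, with TNG OKMS replicate 1 lowest at 33287 CPM.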

How the data were processed

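RNA of all 48 samples was measured with STRT, which reads the 5′ end of transcripts. The deposited table holds raw read counts per transcript that the authors made by aligning to the mouse genome and counting. The submitters' processing notes list Bowtie 0.12.7 and mm10, whereas the study's methods name an earlier build. Positions in the table matched GRCm38 (61.3% of minus-strand rows stood 1 base before the RefSeq start). The table also gives reads summed over all libraries, with and without multiply mapped reads, from which the unique share was taken.

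Transcript rows of all 48 libraries were fitted in edgeR 4.0.16 (R 4.3.3) with TMM factors, filterByExpr by condition and 1 coefficient per condition, and tested by quasi-likelihood with Benjamini-Hochberg adjustment over 15630 genes. Repeat rows (1554) and spike rows (104) were left out. Sequences and coordinates are from RefSeq, GRCm38.p6, where 83 of 83 members matched, 80 by symbol and 3 by synonym. Depth limits the precision: a count of 3 reads equalled 0.212 to 2.10 CPM, and intervals and floors from reads cover counting error only.

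Named genes were, for each comparison, up to 6 higher and 6 lower members by fold change, a core of 10 (Ndufs1, Ndufv1, Sdha, Sdhb, Uqcrc1, Uqcrfs1, Cox4i1, Cox5b, Atp5a1 and Atp5b), the isoform sets, the highest and lowest member of each complex, and up to 3 higher and 3 lower of each other list in MEFs against ESCs; other genes were named after their values were seen. The members and lists were chosen with earlier results of these data known. The test was tried on simulated data. In the MKOS versus OKMS 2NG- comparison, with 200 of 14770 genes changed, 10 genes were called, 9 of them truly changed, at 2-fold, and 81, of them 80 true, at 4-fold. Alternatives were DESeq2 1.42.0, its size factors, no filter, a replicate block, mitochondrial rows left out, the compared conditions alone, 7 libraries left out, 2 ESC lines left out (added after seeing the data), and each library left out in turn. One member is not reported here by name and has no row in the heat map.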

Additional observations from a re-analysis of the deposited data

Results flagged for a closer look

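The change of Atp5d, the δ subunit of the ATP synthase central stalk, from MEFs to E-CAD+ 2NG- cells differed between the cassettes, by a test of the difference itself: OKMS minus MKOS was -1.26 on the log2 scale (SE 0.33, 95% interval -1.91 to -0.61, edgeR adjusted p = 0.0381). It was at 224 and 149 CPM in MKOS MEFs and 554, 475 and 578 CPM in MKOS 2NG- cells, and at 249 and 262 CPM in OKMS MEFs and 295, 298 and 230 CPM in OKMS 2NG- cells. All 3 MKOS 2NG- libraries lay above all MEFs, while the OKMS 2NG- libraries overlapped with the OKMS MEFs. The call was lost without the 7 libraries set aside earlier (-1.08, edgeR adjusted p = 0.112). It was also lost without MKOS MEF replicate 2 (-0.94, 0.298), OKMS MEF replicate 1 (-1.19, 0.132) or 2 (-1.33, 0.0857), MKOS 2NG- replicate 1 (-1.22, 0.0827) or 3 (-1.20, 0.067), and OKMS 2NG- replicate 2 (-1.28, 0.0554) or 3 (-1.18, 0.0903). The fibroblast markers summed to 1502, 790 and 981 CPM in the MKOS and 252, 354 and 498 CPM in the OKMS 2NG- libraries, and their part in the difference was not tested.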

How the results depend on the processing

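No member's call reversed under any alternative run. Of 98 calls, 15 were lost with DESeq2, 20 with its size factors, 23 without the filter, 6 with the replicate block, 18 without the 7 libraries and 6 with mitochondrial rows left out; 7 of the 38 from MEFs to ESCs were lost without the TNG MKOS and TNG OKMS ESCs, an alternative chosen after seeing the data; 25 of 95 were lost with the compared conditions alone, and 191 of 883 when single libraries were left out, 1 of them a failed estimate (Cox8c). The cause was not tested.

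Counts of called members moved by over 1.5 times as follows. With the compared conditions alone they were 12 for OKMS MEFs to 2NG-, 4 for MKOS versus OKMS 2NG- (1 higher and 3 lower with MKOS), 1 for the same at 3NG-, 3 for MKOS 3NG- to 3NG+, 1 for E-CAD- to E-CAD+ and 2 for iPSCs to ESCs. With DESeq2 they were 1 for MKOS versus OKMS 3NG-, 4 and 12 for MKOS and OKMS 3NG- to 3NG+, 13 for iPSCs to ESCs and 7 for 2i. Without the filter they were 3 for MKOS versus OKMS 3NG- and 3 for MKOS 3NG- to 3NG+. Without the 7 libraries they were 0 for the cassette difference, 0 for MKOS versus OKMS 2NG- and 1 for E-CAD- to E-CAD+. The summed level in OKMS 3NG+ over MEFs was 1.37 with TMM-scaled library sizes, against 1.18.

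Leaving out single libraries gave 31 to 37 calls for MEFs to ESCs, 11 to 19 for MKOS and 7 to 18 for OKMS MEFs to 2NG-, 0 to 1 for the cassette difference, 1 to 2 for MKOS and 2 to 7 for OKMS 3NG- to 3NG+, 1 to 15 for iPSCs to ESCs and 1 to 4 for 2i. The lowest OKMS 3NG- to 3NG+ count was without 3NG- replicate 2, and the lowest 2i count without MKOS iPSC replicate 2. An arm of 2 then held 1 library, assumed to vary like the others.

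The labels do not say that a replicate number marks a shared batch, so the main tests did not take the numbers as pairs. Of 84 same-number pairs of sorted libraries, 23 had a correlation of deviations over 0.1. The mean correlation was 0.081, against -0.0404 for different numbers, and 21 of 24 libraries correlated best with their own number. This is a hint from the data of a shared batch, which the main tests do not take into account. With the replicate block 37, 21 and 21 members were called for MEFs to ESCs and MKOS and OKMS MEFs to 2NG-, and 2 for MKOS 3NG- to 3NG+. The block ended the calls of Ndufa5 in MEFs to ESCs (edgeR adjusted p = 0.0509), Uqcrh (0.0562), Cox7c (0.0781) and Atp5g3 (0.06) in MKOS and Cox7a2 (0.0623) in OKMS MEFs to 2NG-, and Uqcr10 in OKMS 3NG- to 3NG+ (0.0503). Depth limits members with few reads, such as Cox8b with 27 reads and Cox6a2 with 36 in all libraries.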

Other observations

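Genes around the respiratory chain were measured in the same libraries. Of 18 citrate cycle genes tested, 4 were higher and 4 lower in ESCs than in MEFs, 5 and 2 in MKOS 2NG- cells and 6 and 0 in OKMS 2NG- cells. These were 44.4%, 38.9% and 33.3% of the list, against 60.1%, 27.0% and 29.2% of all genes. Pdhb, a subunit of pyruvate dehydrogenase, rose by 1.27 and Idh3a, of the NAD-linked isocitrate dehydrogenase, by 1.10 from MEFs to ESCs, while Idh2, the NADP-linked enzyme, fell by 0.92. Idh3a rose by 1.84 with MKOS and 1.57 with OKMS at the 2NG- stage. Of 23 glycolysis genes tested, 10 were higher and 5 lower in ESCs (65.2%, near the 60.1% of all genes). Pfkp, a phosphofructokinase, rose by 2.74, Pdk1, which inhibits pyruvate dehydrogenase, by 2.62 and Slc2a1, a glucose transporter, by 2.60, while Eno2 fell by 2.94 and Eno3 by 1.87. The difference between the cassettes' changes passed for Hk1, a hexokinase (OKMS minus MKOS -2.49, edgeR adjusted p = 0.0140), and Tfam (1.56, 0.00988). It also passed for Cs, citrate synthase (-1.19, 0.0428), and Pcx, pyruvate carboxylase (3.54, 0.0311), beside 1.35% of all genes. Of 76 mitochondrial ribosomal genes and of 35 mitochondrially encoded rows tested, 1 each was lower and 0 higher by this difference.

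Ribosomal protein genes were counted in the same way. Of 76 mitochondrial ribosomal genes tested, 51 were higher and 7 lower in ESCs, 31 and 0 in MKOS 2NG- cells and 45 and 2 in OKMS 2NG- cells (76.3%, 40.8% and 61.8%, against 60.1%, 27.0% and 29.2% of all genes), and their median log2 fold change in ESCs was 0.58, against 0.04 for the oxidative phosphorylation members. Mrps18b rose by 1.93 and Mrpl44 by 1.72 in ESCs, while Mrps6 fell by 1.46. Of 83 cytosolic ribosomal genes tested, 76 were higher and 1, Rps27l, lower in ESCs, 26 and 1 in MKOS 2NG- cells and 53 and 0 in OKMS 2NG- cells (92.8%, 32.5% and 63.9%). Their summed level was 141474 CPM in MEFs and 200937 CPM in ESCs.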
